A study of Mus musculus with 6 samples.

Results

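The genes described here are the nuclear genes for the subunits of oxidative phosphorylation and their closest namesakes in mouse dorsal skin: all protein-coding genes whose symbols begin with Nduf, Sdha to Sdhd, Uqcr, Cox4 to Cox8 or Atp5 and whose mean raw count over the 6 libraries was 10 or more. The rule took 92 of the 55291 genes in the count table, of which 21830 are protein-coding. It left out 3 genes for low counts: Cox6b2 had a mean of 6.0, Cox7b2 of 0.333 and Cox8c of 0, while the lowest genes taken were Cox4i2 with a mean count of 12.5 and Cox5b-ps with 63.9. The members are 7 core subunits, 30 accessory subunits and 8 assembly factors of complex I, 4 subunits of complex II, 8 of complex III, 14 of complex IV, 17 of ATP synthase and 4 paralogs that are not standard subunits of these enzymes (Cox4i2, Ndufa4l2, Cox7a2l and Cox5b-ps). Ndufb1-ps and Cox5b-ps carry the ending of a pseudogene name but are listed as protein-coding.

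Dorsal skin of 3 wild-type (WT) libraries, strain C57BL/6, was compared with that of 3 libraries from tight-skin (Tsk) mice, strain B6.Cg-Fbn1Tsk/J, all at day 40 of age. The labels write the Tsk genotype as Fbn1+/-, although Tsk is an in-frame duplication within the fibrillin-1 gene and not a null allele. Tsk is a germline allele, so every cell type of the skin carries it, and the mice serve as a model of thickened, fibrotic skin. Nothing in the labels ties the libraries to different animals, and the spread on which the p-values rest may therefore be technical.

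Oxidative phosphorylation is carried out in the inner mitochondrial membrane. Complexes I and II pass electrons from NADH and succinate to ubiquinone, complex III passes them on to cytochrome c and complex IV to oxygen, and ATP synthase uses the proton gradient that complexes I, III and IV build up. Most subunits are encoded in the nucleus and the others by mitochondrial DNA. Skeletal muscle, brown fat and heart hold much more of this machinery than epidermis or dermis, and whole dorsal skin of the mouse carries a thin sheet of striated muscle, the panniculus carnosus, beneath the fat. Several subunits of complex IV exist as a form of heart and skeletal muscle (Cox6a2, Cox7a1, Cox8b) and a form of most other tissues (Cox6a1, Cox7a2, Cox8a).

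The libraries held 17561271 to 19219622 counts each. Fbn1, the gene that carries the allele, stood at 303 ± 45.6 CPM (counts relative to the library total, after TMM scaling of the totals) in WT and 1761 ± 302 CPM in Tsk (SD, n = 3 each), with a log2 fold change of 2.54 ± 0.24 (SE, adjusted p = 0.00401, edgeR's quasi-likelihood F-test with Benjamini-Hochberg adjustment). Of the tissue markers, those of keratinocytes summed to 5147 to 9068 CPM and those of fibroblasts to 6197 to 42040 CPM over the 6 libraries. All 37 genes of the mitochondrial chromosome were listed at 0, so only the nuclear part of the machinery could be described. The library Tsk 5 stood apart from the rest in markers of fat: Ucp1, the uncoupling protein of brown and beige fat, had 1536 counts there and 0 to 2 counts in each of the other 5 libraries, and Adipoq, the adipocyte hormone adiponectin, had 4754 counts there, 628 and 869 in the other Tsk libraries and 152 to 216 in WT. Elovl3, another marker of thermogenic fat, did not stand apart in this way. It had 113 counts in Tsk 5, 94 and 105 in the other Tsk libraries and 9 to 149 in WT. Myh7, the slow myosin heavy chain, ranged from 38 to 10163 counts within WT, so fibre-type markers differed between libraries of the same group. In such bulk samples, fewer cells of a type and less RNA per cell cannot be told apart.

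Before the values, the DNA in front of the transcription start is shown for 3 complex IV genes, since within WT Cox6a1 and Cox8a were lowest in WT 2, where most members were highest, and Cox8b is the muscle counterpart of Cox8a. The sequences are the 250 bases before the RefSeq start (build GRCm38.p6, 5′ to 3′ in the direction of the gene), and capitals mark the matches found on either strand for the near-palindromic consensus of the nuclear respiratory factor NRF1 with a middle base left free, for the letters CCGGAAG, bound by the ETS factor GABP, TCAAGGTCA, bound by oestrogen-related receptors, and ACGTG, the core of the hypoxia response element.
Cox6a1, chr5:115348959-115349208, minus strand: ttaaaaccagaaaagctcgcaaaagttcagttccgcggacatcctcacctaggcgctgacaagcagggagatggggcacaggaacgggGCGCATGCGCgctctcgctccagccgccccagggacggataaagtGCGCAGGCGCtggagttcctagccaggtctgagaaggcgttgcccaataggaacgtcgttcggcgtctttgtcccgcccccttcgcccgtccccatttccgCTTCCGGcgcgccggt
Cox8a, chr19:7217617-7217866, minus strand: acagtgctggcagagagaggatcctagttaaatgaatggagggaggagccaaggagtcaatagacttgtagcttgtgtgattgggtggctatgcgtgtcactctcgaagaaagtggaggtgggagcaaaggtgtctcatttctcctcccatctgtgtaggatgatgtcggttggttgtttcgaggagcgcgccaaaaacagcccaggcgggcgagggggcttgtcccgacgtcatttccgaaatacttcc
Cox8b, chr7:140900447-140900696, minus strand: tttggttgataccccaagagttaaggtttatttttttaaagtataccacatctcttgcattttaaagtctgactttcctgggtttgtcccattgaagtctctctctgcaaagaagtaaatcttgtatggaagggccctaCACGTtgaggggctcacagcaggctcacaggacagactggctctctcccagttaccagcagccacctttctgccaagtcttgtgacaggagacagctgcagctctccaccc
The Cox6a1 window held the NRF1 consensus at 162 to 153 and at 117 to 108 bases before the start and the GABP letters at 16 to 10 bases before it. In the deposited counts the Cox6a1 gene begins further out, at 115348981. The last bases of its window, the GABP letters among them, therefore lie inside that gene model. The Cox8b window held only the hypoxia response letters, 111 to 107 bases before the start, and the Cox8a window held none of the 4 motifs. The windows of Cox7a1 and Cox7a2, not printed here, held none of them either. No matches overlapped in these windows. RefSeq windows were found for 74 of the 92 members, and Cox6a2 was not among them. Of these 74 genes, 14 (18.9%) held the NRF1 consensus in at least 1 window, against 4.23% of 27025 genes with a window, and 14 (18.9%) held the GABP letters, against 7.83%. The oestrogen-related receptor letters were in the Atp5g3 window alone among the members (1.35%, against 0.422% of all genes), and the hypoxia response letters were in 15 of the 74 (20.3%, against 18.5%). The members' windows had a median of 57.6% G and C, against 52.4% for all windows, the members' included. A match of letters does not show that a factor binds.

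Levels were compared between genes as CPM per kilobase of exon, the mean over the 6 libraries, for the 88 members with an exon length in GENCODE M21. The median member stood at 44.4 CPM per kilobase. The 2 large subunits alpha and beta of ATP synthase were among the 4 highest: Atp5a1 (subunit alpha) at 242 and Atp5b (subunit beta) at 217 CPM per kilobase. The other 2 of these 4 were muscle forms of complex IV subunits, Cox6a2 at 237 and Cox8b at 236 CPM per kilobase. Cox6b1, a subunit at the cytochrome c side of complex IV, followed at 186, and Cox4i1, which binds ATP as a regulatory subunit, at 141 CPM per kilobase. The common forms Cox6a1 and Cox8a stood at 44.3 and 44.6 CPM per kilobase, well below their muscle counterparts. Assembly factors of complex I, which help to build the enzyme without staying in it, were the lowest group, with a median of 4.17 and a range of 2.17 to 10.4 CPM per kilobase. The lowest member was Cox4i2, the paralog of Cox4i1 known from lung and hypoxia, at 0.82 CPM per kilobase.

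**Figure D1:**
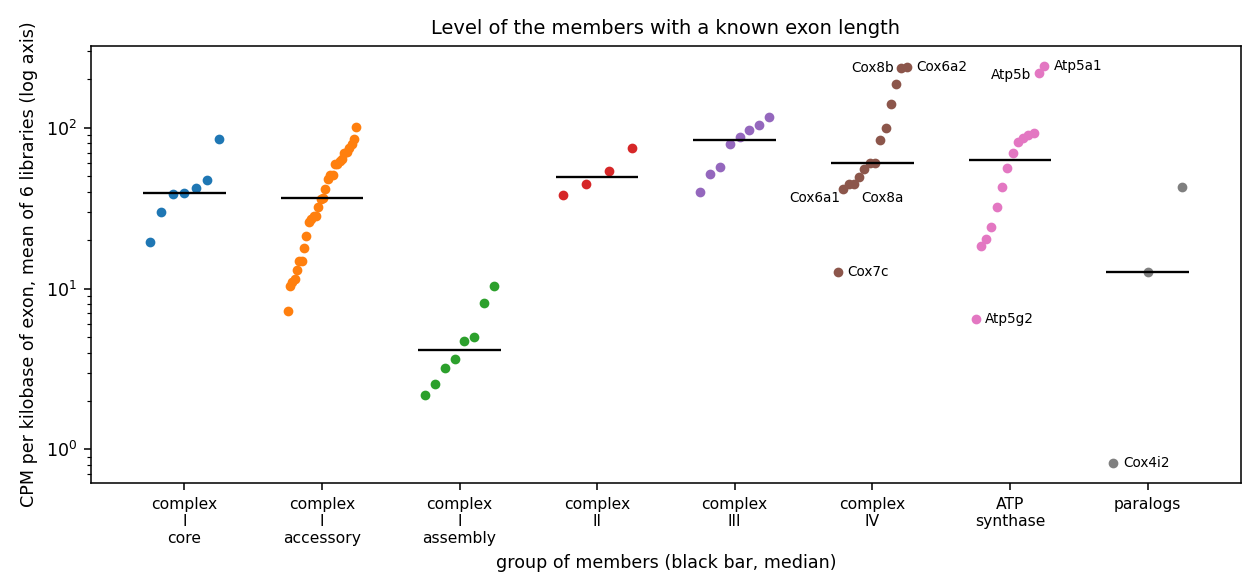
Level of the members in CPM per kilobase of exon (mean of 6 libraries, log axis) by group, with 1 point for each of the 88 members of known exon length and a bar at each group's median. Medians run from 4.17 for complex I assembly factors to 83.3 for complex III, and Atp5a1, Cox6a2, Cox8b and Atp5b lie above 200.

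The libraries differed more within groups than between them, and the members moved as a block. Their mean log2(CPM + 0.5) was 5.91 ± 0.43 in WT and 5.71 ± 0.35 in Tsk (SD, n = 3 each). The 92 genes together held 0.633, 0.966 and 0.901% of all counts in WT 1 to 3 and 0.845, 1.11 and 0.668% in Tsk 4 to 6, and the groups overlapped. After TMM scaling, their summed level was 6190, 11755 and 10180 CPM in WT and 7962, 9964 and 5933 CPM in Tsk. WT 1 was the lowest WT library for 88 of 92 members (95.7%, against 38.2% of the 19971 genes tested) and WT 2 the highest for 85 (92.4%, against 34.5%). Tsk 6 was the lowest Tsk library for 91 members (98.9%, against 35.7%) and Tsk 5 the highest for 90 (97.8%, against 31.9%). All 4 orders held together for 83 members (90.2%, against 8.61% of all genes tested). These orders were read off the members themselves, so the percentages describe the pattern and do not test it. The median member was 1.85-fold higher in WT 2 than in WT 1 and 1.64-fold higher in Tsk 5 than in Tsk 6.

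The 9 members outside this order were Cox6a1, Cox8a, Cox4i2, Cox7c, Ndufa4l2, Ndufaf3, Ndufs5, Atp5g2 and Cox5b-ps. Cox7c joined the order once the counts of a near-identical copy were added, as given further on. Cox6a1 and Cox8a were turned round within WT, with WT 2 at 0.775 and 0.757 times WT 1, while Cox6a2 and Cox8b, the muscle forms, were 2.17-fold and 2.36-fold higher in WT 2. Ndufa4l2, known as a hypoxia-induced paralog of Ndufa4, was lowest in WT 2 at 9.07 CPM, against 15.9 CPM in WT 1 and 13.9 CPM in WT 3. Skeletal muscle markers followed the members within WT but not within Tsk. The mean log2(CPM + 0.5) of 20 such markers was 11.58, 12.52 and 12.29 in WT and 11.57, 11.40 and 11.26 in Tsk, against 5.43, 6.24 and 6.07 and then 5.72, 6.05 and 5.35 for the 92 members. The other lists that share the members' order are given with the pathway genes further on.

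**Figure D2:**
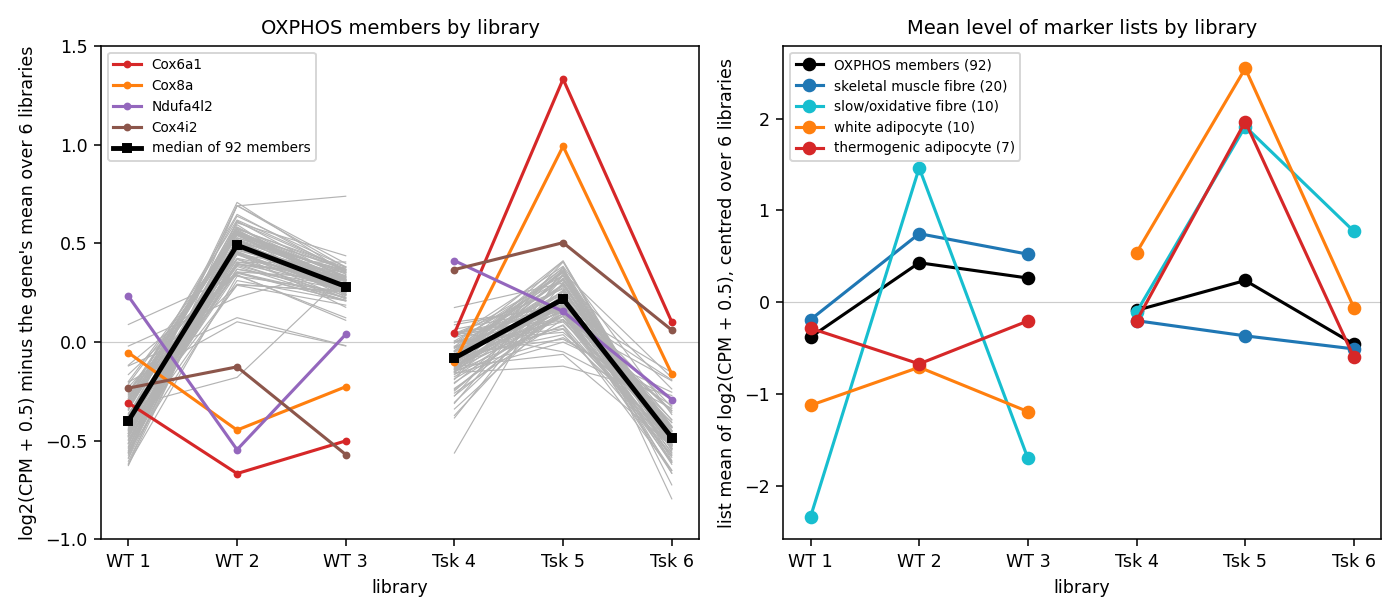
Left, log2(CPM + 0.5) of each member minus its mean over the 6 libraries, with grey lines for members, black squares for their median and colours for 4 members. Right, the mean of log2(CPM + 0.5) over the members and over 4 marker lists, each centred over the libraries. WT 1 and Tsk 6 are low and WT 2 and Tsk 5 high for nearly all members, while Cox6a1 and Cox8a are lowest in WT 2, and the fat lists peak in Tsk 5.

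No member passed the threshold of an adjusted p of 0.05 between Tsk and WT in edgeR's quasi-likelihood F-test, in either direction (0 of 92, against 3.42% of all genes tested, 2.72% higher and 0.696% lower in Tsk). At an unadjusted p under 0.05 there were 3 members (3.26%, against 20.1% of all genes tested): Cox6a1 and Cox4i2, higher in Tsk, and Ndufaf2, lower. These were also the 3 members whose groups did not overlap (3.26%, against 24.7%). Fitted log2 fold changes were below 0 for 84 members (91.3%, against 53.0% of all genes tested), with a median of -0.25 for the members and -0.03 for all genes tested. The median SE of a member was 0.26, so shifts of this size lay within the spread between libraries for nearly every gene. The sign of the median depended on the scaling: with library totals alone it was 0.06, where the median of all genes tested moved to 0.25 and 33 members lay below 0. Signs given for groups of members here hold on the TMM scale. The median also moved with single libraries, to -0.45 without WT 1, -0.42 without Tsk 5, -0.17 without WT 3, -0.09 without Tsk 6 and -0.05 without WT 2.

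**Figure D3:**
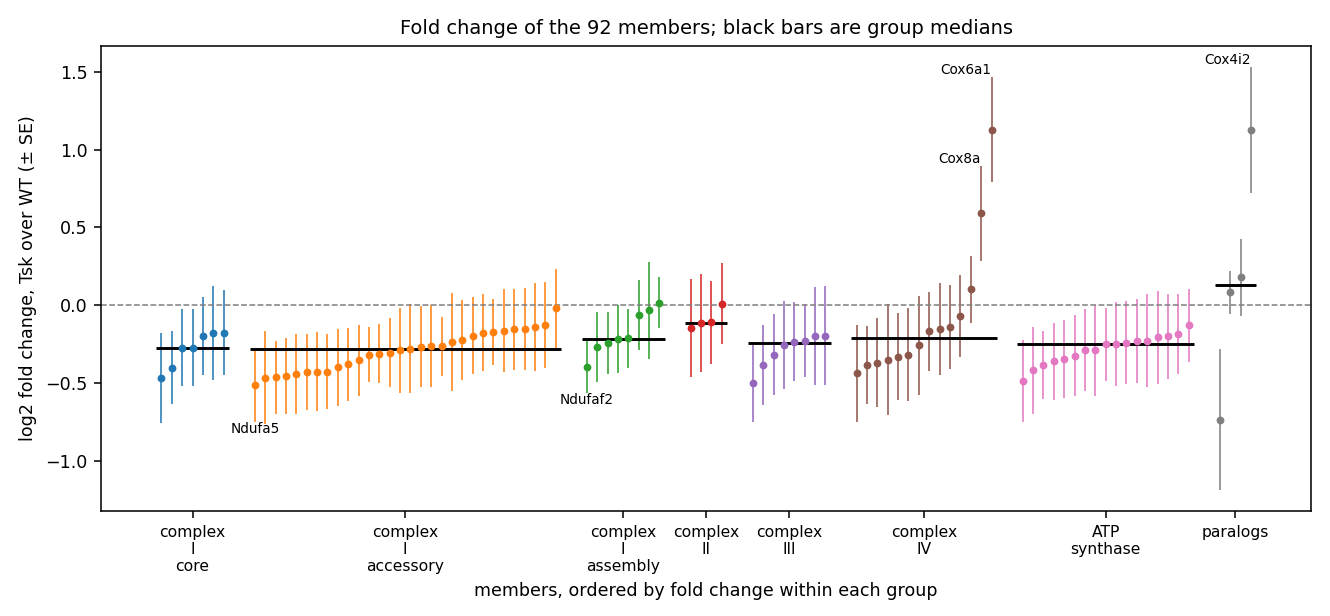
Fitted log2 fold change (Tsk over WT, bars ± SE) of the 92 members by group, sorted within each group, with black bars at the group medians. Most genes lie between -0.5 and 0 with error bars that reach towards 0, and Cox6a1 and Cox4i2 lie above 1; no member passed the adjusted threshold.

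Among the 7 core subunits of complex I, which hold the flavin and the iron-sulphur clusters, all fitted values were below 0, with a median of -0.27. Ndufv1, the NADH-binding subunit, stood at 78.4, 149 and 129 CPM in WT and 102, 135 and 77.5 CPM in Tsk. Its fitted change was the nearest to 0 of the core subunits (log2 fold change -0.18 ± 0.27, adjusted p = 0.773, edgeR). Ndufv2, its iron-sulphur partner, stood at 72.0, 140 and 120 CPM in WT and 96.7, 105 and 72.6 CPM in Tsk, with every Tsk library inside the WT range.

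The 30 accessory subunits of complex I surround this core, and all 30 fitted values were below 0 (median -0.28, range -0.52 to -0.02). Ndufa5, a subunit of the matrix arm, stood at 50.7, 97.4 and 79.5 CPM in WT and 56.8, 59.4 and 42.9 CPM in Tsk. The groups overlapped through WT 1, which was lower than Tsk 4 and Tsk 5 (log2 fold change -0.52 ± 0.24, adjusted p = 0.269, edgeR). Without WT 1 the value was -0.71 (adjusted p = 0.0407, edgeR, where 6.72% of genes were called), and no other member passed in any of the 6 fits that left out a library. Over all alternatives run, the adjusted p of Ndufa5 ranged from 0.0407 to 0.657. At the other end, Ndufb5, a subunit of the membrane arm, stood at 41.3, 80.4 and 76.0 CPM in WT and 61.7, 79.3 and 53.9 CPM in Tsk, with all Tsk libraries within the WT range. Ndufb9 and Ndufa1 had the highest levels per length of these subunits, at 101 and 84.7 CPM per kilobase. Ndufb9 stood at 70.4, 145 and 128 CPM in WT and 91.5, 121 and 71.5 CPM in Tsk, again inside the WT range, and Ndufa1 at 28.3, 50.1 and 44.2 CPM in WT and 28.8, 39.5 and 22.0 CPM in Tsk.

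The 8 assembly factors of complex I had a median of -0.22, with 7 below 0. Ndufaf2, a paralog of Ndufa12 that acts late in assembly, stood at 6.84, 8.23 and 7.02 CPM in WT and 5.70, 5.84 and 5.22 CPM in Tsk. Every Tsk library lay below every WT library, with an SE below the median of the members (log2 fold change -0.40 ± 0.16, unadjusted p = 0.0404, adjusted p = 0.226, edgeR). Ndufaf7, a methyltransferase of the mitochondrial matrix, stood at 8.18, 9.78 and 8.82 CPM in WT and 9.23, 10.1 and 7.76 CPM in Tsk, and had the highest fitted value of the group at 0.02 ± 0.16. Ndufaf1 and Ndufaf8 had the highest levels per length of the group, at 10.4 and 8.09 CPM per kilobase, with fitted changes of -0.22 ± 0.22 and -0.06 ± 0.23. The assembly factors also varied less across libraries, since the median fold of WT 2 over WT 1 was 1.56 for them and 1.84 to 1.96 for the groups of enzyme subunits.

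Complex II, which is also the succinate dehydrogenase of the citric acid cycle, had the fitted values nearest to 0 among the enzyme complexes, with a median of -0.11. Sdha, the flavoprotein, stood at 200.3, 416 and 349 CPM in WT and 279, 391 and 204 CPM in Tsk, with all 3 Tsk libraries inside the WT range (-0.14 ± 0.31, adjusted p = 0.847, edgeR). Sdhb, the iron-sulphur subunit, had a log2 fold change of -0.11 ± 0.32. The membrane anchors Sdhc and Sdhd had -0.11 ± 0.26 and 0.01 ± 0.26. Read as a share of all member counts, a quantity that no scaling between libraries touches, complex II held 6.34, 6.71 and 6.71% in WT and 7.03, 7.56 and 6.87% in Tsk. Each Tsk library lay above each WT library. The core of complex I went the other way, with 8.72, 8.97 and 8.95% in WT and 8.51, 8.54 and 8.61% in Tsk, again without overlap. For the other groups of members the shares overlapped between WT and Tsk, and ATP synthase held 37.8 ± 0.197% in WT and 37.7 ± 0.443% in Tsk (SD, n = 3 each). These shares were not tested, and they were set by the most abundant genes of each group. They add up to 100% in each library, so the share of 1 group depends on the others. For comparison, the levels of 24.7% of all genes tested did not overlap between WT and Tsk.

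The 8 complex III genes were all below 0, with a median of -0.24. Uqcr10, a small subunit, stood at 36.6, 68.0 and 57.2 CPM in WT and 34.8, 49.5 and 30.2 CPM in Tsk, where Tsk 4 and Tsk 6 lay below all WT libraries (-0.50 ± 0.25, adjusted p = 0.320, edgeR). Uqcrfs1, the Rieske iron-sulphur protein, stood at 84.4, 179 and 156 CPM in WT and 121, 163 and 82.4 CPM in Tsk, with the groups overlapping almost in full (-0.20 ± 0.32). Uqcr11 and Uqcrb had the highest levels per length of the complex, at 116 and 104 CPM per kilobase, and fitted values of -0.38 ± 0.26 and -0.32 ± 0.26.

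ATP synthase had 17 genes, all with fitted values below 0 and a median of -0.25. Atp5b stood at 667, 1247 and 1069 CPM in WT and 852, 1079 and 613 CPM in Tsk. Atp5a1 stood at 527, 1049 and 866 CPM in WT and 732, 867 and 517 CPM in Tsk. For both of these subunits only Tsk 6 lay outside the WT range, just below WT 1, and the fitted changes were -0.23 ± 0.30 and -0.21 ± 0.30. Atp5j, which encodes the coupling factor of the stalk, was the lowest of the group (-0.49 ± 0.26, adjusted p = 0.346, edgeR), and Atp5h, subunit d of the stalk, was the nearest to 0 (-0.13 ± 0.24). Atp5g1, Atp5g2 and Atp5g3 encode the same mature subunit c of the rotor from 3 genes. Their fitted values were -0.29 ± 0.26, -0.38 ± 0.22 and -0.25 ± 0.27.

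Among the 5 enzyme complexes, complex IV held the widest range of fitted values, from -0.44 for Cox7b to 1.13 for Cox6a1, with 11 of 14 genes below 0. Cox6a1 (chromosome 5, 115345642 to 115348981, minus strand, mm10) stood at 22.1, 17.2 and 19.3 CPM in WT and 28.4, 70.1 and 29.6 CPM in Tsk. All 3 Tsk libraries lay above all WT libraries, and Tsk 5 was 2.37-fold above Tsk 6. The log2 fold change was 1.13 ± 0.34 (unadjusted p = 0.00958, adjusted p = 0.110, edgeR), and without Tsk 5 it was 0.57 ± 0.15 (adjusted p = 0.120). DESeq2 put it past the threshold (adjusted p = 0.0159, against 7.07% of genes called), as did limma-trend on the deposited CPM (adjusted p = 0.0384, against 9.45%). Over all alternatives run, its adjusted p ranged from 0.0159 to 0.701. Tsk 5 was also the library with Ucp1 and with the most Adipoq, as given above. The mean log2 level of the white adipocyte markers was 4.59, 5.00 and 4.52 in WT and 6.25, 8.26 and 5.65 in Tsk. Within WT this level was highest in WT 2, where Cox6a1 was lowest, but single adipocyte markers differed in this. Cfd and Adipoq were only 1.01-fold and 1.03-fold higher in WT 2 than in WT 1, while Plin1 and Lep were 1.2-fold and 2.18-fold higher. The mean log2 level of sebocyte markers was 3.87, 2.26 and 3.30 in WT and 3.72, 4.38 and 3.90 in Tsk. As a list mean, sebocyte markers had the order of Cox6a1 within each group, but their groups overlapped, unlike those of Cox6a1. Single sebocyte markers differed within Tsk. Mgst1 stood at 27.0, 73.4 and 27.9 CPM and Cidea at 3.73, 40.7 and 4.47 CPM, while Scd3 stood at 15.2, 13.1 and 25.5 CPM. Cidea also belongs to the thermogenic adipocyte list. The part of fat cells or sebocytes in the level of Cox6a1 was not tested.

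Cox8a (chromosome 19, 7215153 to 7217616, minus strand, mm10) was also lowest in WT 2 and highest in Tsk 5. It stood at 25.0, 18.9 and 22.1 CPM in WT and 24.2, 52.1 and 23.2 CPM in Tsk. Only Tsk 5 lay above the WT range, and the log2 fold change of 0.59 ± 0.30 (adjusted p = 0.326, edgeR) was 0.10 ± 0.16 without Tsk 5. Cox7a2, the third common form, was highest in WT 2: it stood at 29.1, 52.0 and 42.9 CPM in WT and 34.5, 48.3 and 27.6 CPM in Tsk, low in WT 1 and Tsk 6 like most members (-0.17 ± 0.25). The muscle forms Cox6a2 (-0.32 ± 0.30), Cox7a1 (-0.35 ± 0.36) and Cox8b (-0.26 ± 0.32) had fitted values near the median of the members. Ndufa4, once assigned to complex I and now known as a subunit of complex IV, had -0.33 ± 0.28, Cox4i1 had -0.07 ± 0.26 and Cox6b1 had -0.14 ± 0.27.

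The 2 forms of a subunit take the same place in the enzyme, and the ratio of their counts within a library is free of the scaling between libraries. Ratios were compared for 8 pairs of paralogs with a two-sided exact permutation test, which with 3 libraries against 3 cannot give a p below 0.1. Cox6a2 exceeded Cox6a1 4.79-fold, 13.4-fold and 10.4-fold in WT and 5.62-fold, 2.39-fold and 3.51-fold in Tsk. WT 2 and WT 3 had higher ratios than any Tsk library and WT 1 lay between Tsk 4 and Tsk 6, so the groups overlapped (difference of mean log2 ratios -1.27, p = 0.2, exact permutation test; -0.98 without Tsk 5). Cox8b exceeded Cox8a 2.10-fold, 6.54-fold and 4.56-fold in WT and 3.18-fold, 1.89-fold and 2.42-fold in Tsk, again highest in WT 2 and WT 3 (difference -0.70, p = 0.3, exact permutation test; -0.52 without Tsk 5). Cox7a1 and Cox7a2 were nearly balanced, at 1.15-fold, 1.57-fold and 1.53-fold in WT and 1.34-fold, 1.34-fold and 1.10-fold in Tsk (difference -0.16, p = 0.5, exact permutation test).

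Of the other 5 pairs, only Cox4i2 over Cox4i1 did not overlap between groups. Cox4i2 had 8, 8 and 4 counts in WT and 18, 23 and 14 counts in Tsk, beside a far more abundant Cox4i1. Each Tsk library exceeded each WT library in the ratio, by a difference of mean log2 ratios of 1.16 (p = 0.1, exact permutation test, the smallest that it can give). The fitted change of Cox4i2 itself was 1.12 ± 0.41 (unadjusted p = 0.0225, adjusted p = 0.170, edgeR) on these low counts, and 0.96 ± 0.48 without Tsk 5. The summed level of 5 endothelial markers was 140 to 188 CPM in WT and 211 to 351 CPM in Tsk. Fibroblast markers, at 6197 to 10907 CPM in WT and 18324 to 42040 CPM in Tsk, did not overlap either. Nor did macrophage markers as a sum, at 156 to 199 CPM in WT and 216 to 572 CPM in Tsk. Their mean log2 level did overlap, at 4.86, 4.64 and 5.11 in WT and 4.94, 5.42 and 6.34 in Tsk. The part of these cell types in the level of Cox4i2 was not tested. Ndufa4l2 stood at 15.9, 9.07 and 13.9 CPM in WT and 18.1, 15.1 and 10.9 CPM in Tsk (0.18 ± 0.25), and its ratio to Ndufa4 overlapped between groups (difference 0.50, p = 0.5, exact permutation test). Cox6b2 had only 2 to 13 counts in any library (difference against Cox6b1 0.56, p = 0.6, exact permutation test). Atp5g1 and Atp5g2, each over Atp5g3, differed by -0.0075 (p = 1, exact permutation test) and -0.18 (p = 0.4, exact permutation test). Adjusted over the 8 pairs, every p was 0.667 or more.

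**Figure D4:**
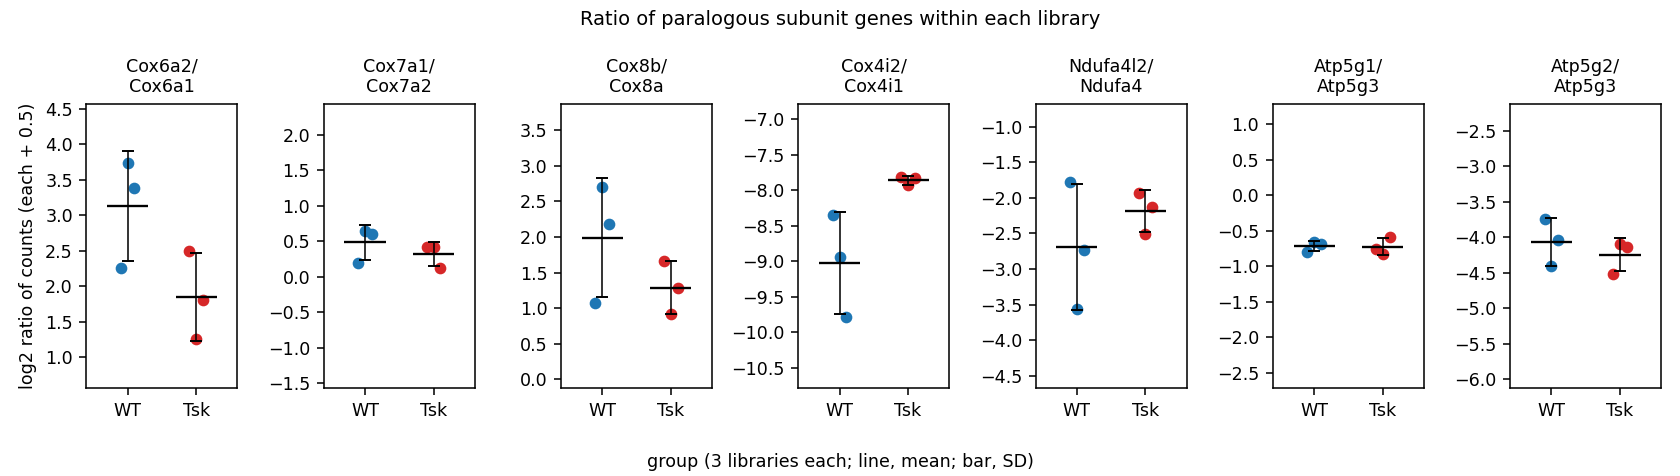
log2 ratio of counts (each + 0.5) for 7 pairs of paralogous genes, with 1 point for each library, a line at the group mean and bars of 1 SD; every panel spans 4 log2 units. Only Cox4i2/Cox4i1 has Tsk libraries that all lie above the WT libraries, and the Cox6a2/Cox6a1 ratio is highest in WT 2 and WT 3.

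Cox7a2l, a paralog of Cox7a2 that links complexes III and IV in supercomplexes and is known to occur in a shortened form in C57BL/6 mice, stood at 54.3, 67.3 and 61.7 CPM in WT and 67.2, 70.8 and 56.2 CPM in Tsk. It had the smallest error of the members named here (0.08 ± 0.14). Gene counts do not tell its forms apart. Cox5b-ps had the lowest fitted value of all members, -0.74 ± 0.45 (adjusted p = 0.414, edgeR), with 2.23, 5.51 and 5.72 CPM in WT and 2.02, 4.35 and 1.65 CPM in Tsk.

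Members were next set against the muscle in each library. The 20 skeletal muscle markers, none of which is a member, had a median log2 fold change of -0.81 with 19 below 0 and none past the threshold, and a summed level of 175513 to 318786 CPM in WT and 136317 to 166554 CPM in Tsk, so the members' median of -0.25 was the smaller of the shifts. The mean log2 level of the members minus that of the muscle markers was -6.15, -6.28 and -6.22 in WT and -5.85, -5.36 and -5.91 in Tsk. WT libraries thus lay within 0.126 of each other on this scale, although the 2 scores ranged over 0.812 and 0.938 within WT. Every Tsk library lay above every WT library, by a mean of 0.51, or 0.34 without Tsk 5. The same held for each of the 8 groups of members, from 0.45 for the accessory subunits of complex I to 0.65 for complex II and 0.78 for the paralogs. Without Tsk 5 these 3 shifts were 0.28, 0.44 and 0.64. The muscle score itself was lower in every Tsk library (11.26 to 11.57) than in every WT library (11.58 to 12.52). A gene of unchanged level would therefore also lie higher in every Tsk library on this scale. By gene, 75 of 92 members had all Tsk values above all WT values relative to the muscle score, against 42.9% of all genes tested. The 17 exceptions included Cox7a1, Cox8a, Ndufa1 and Ndufaf2. With the muscle score as a covariate in the edgeR fit, which left 3 residual degrees of freedom, the members' median was 0.48 and that of all genes tested 0.00. As that score did not overlap between the groups, the fit could not compare them at equal muscle content. No member passed the adjusted threshold in that fit (0.03% of all genes did), and 16 had an unadjusted p under 0.05 (17.4%, against 11.5% of all genes tested).

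Markers of fibre type and of fat differed between libraries beside this. The list of slow and oxidative fibre markers had a median of 0.94 (0.01 without Tsk 5), with 8 of 10 above 0 and none past the threshold, and its mean log2 level was 3.59, 7.40 and 4.23 in WT and 5.83, 7.85 and 6.71 in Tsk. Myh2, the myosin of fast oxidative fibres, stood at 373, 784 and 710 CPM in WT and 1279, 1906 and 1285 CPM in Tsk, without overlap (1.26 ± 0.32, adjusted p = 0.0692, edgeR; 1.04 ± 0.33 without Tsk 5). Myh4, the myosin of fast glycolytic fibres, stood at 28728, 47858 and 42623 CPM in WT and 22287, 17362 and 16271 CPM in Tsk (-1.09 ± 0.36, adjusted p = 0.136). The white adipocyte list rose in 2 of 10 genes, Lep and Cfd, with a median of 2.80, and all 10 fitted values were above 0. Without Tsk 5 its median was 1.56, 9 of 10 values lay above 0 and 5 genes passed (Adipoq, Plin1, Cidec, Lep and Cfd, against 1.66% of all genes tested called higher in that fit). Its summed level was 572 to 1022 CPM in WT and 961 to 4703 CPM in Tsk, highest in Tsk 5. The part of oxidative fibres or of fat cells in the members' level relative to muscle was not tested.

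Other genes of mitochondrial energy supply showed the library order of the members in each of 8 lists, taken as list means, and none of their genes passed the threshold. The endothelial markers shared this order too, and the skeletal muscle markers did not. The 14 genes of the citric acid cycle had a median log2 fold change of -0.18, with 13 below 0, and Idh3a, a subunit of isocitrate dehydrogenase, had -0.32 ± 0.33. The 6 genes of pyruvate entry had a median of -0.13, and the 11 electron carriers and further subunits -0.16, with Cycs, cytochrome c, at -0.24 ± 0.25. The 35 assembly factors outside the name rule had a median of -0.22, with 29 below 0. Uqcc2, an assembly factor of complex III, had the smallest adjusted p of these lists, 0.124, with a log2 fold change of -0.63 ± 0.20 (edgeR). The 9 genes of ATP export and the muscle energy shuttle had a median of -0.29, the lowest of the 8 lists, and the voltage-dependent anion channels Vdac1, Vdac2 and Vdac3 had -0.40 ± 0.28, -0.32 ± 0.18 and -0.49 ± 0.24. The 15 genes of the outer membrane, import and cristae had a median of -0.15.

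The lists of fatty acid oxidation and of the regulators of mitochondrial biogenesis had medians at or above 0. The 14 genes of fatty acid oxidation had a median of 0.15, with 12 above 0. Cpt1a, the liver form of the carnitine palmitoyltransferase that admits fatty acids to mitochondria, stood at 51.1, 27.5 and 33.3 CPM in WT and 54.3, 53.6 and 52.9 CPM in Tsk, without overlap (0.52 ± 0.21, adjusted p = 0.209, edgeR). Its muscle form Cpt1b had -0.33 ± 0.30. The 15 regulators of biogenesis had a median of 0.00, with 7 below and 8 above 0. Ppargc1a, the coactivator that drives oxidative fibres and brown fat, stood at 18.1, 41.8 and 33.2 CPM in WT and 22.2, 25.1 and 15.01 CPM in Tsk (-0.58 ± 0.30, adjusted p = 0.336, edgeR), and Tfam, the packaging protein of mitochondrial DNA, had -0.29 ± 0.14. Tsk 5, the library with Ucp1, was not above the WT range for Ppargc1a.

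Markers of the other cell types in skin were read in the same way. The thermogenic adipocyte list had 5 of 7 genes tested, a median of 0.06 (-0.02 without Tsk 5) and none past the threshold, with a mean log2 level of 4.62 in Tsk 5 and 1.98 to 2.45 in the other libraries. It shares Ppargc1a and Cpt1b with the pathway lists above and Cidea with the sebocyte list. Cidea, a lipid droplet protein of brown fat and sebaceous glands, had 104, 23 and 66 counts in WT and 72, 871 and 95 in Tsk. Of the endothelial list, Vwf and Tek rose (2 of 5, median 0.99), and both also passed without Tsk 5 (median 0.74), while the fibroblast (7 genes, median 0.92) and macrophage lists (5 genes, median 1.06) had no gene past the threshold. The keratinocyte (8 genes, median -0.27) and sebocyte lists (7 genes, median 0.65) also had none.

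Near-identical copies limit the values of some members. Cox7c-ps1, listed as a transcribed pseudogene, held 79.1 to 89.2% of the counts of Cox7c and Cox7c-ps1 together, and Ndufb4c held 50.8 to 56.6% of those of Ndufb4 and Ndufb4c. Cox7c, a small complex IV subunit, had 0.10 ± 0.22 as deposited and -0.12 ± 0.30 with the copy's counts added, and Ndufb4 had -0.46 ± 0.24 and -0.41 ± 0.27. Cox7c and its copy together stood at 60.0, 115.1 and 111.7 CPM in WT and 90.5, 115.0 and 59.4 CPM in Tsk, in the library order of most members. Of the 16 rows of other biotypes that match the name rule, the other 14 had fewer than 20 counts in every library. Which of the near-identical genes the reads came from was not tested, so the level of Cox7c (12.7 CPM per kilobase) is uncertain.

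**Figure D5:**
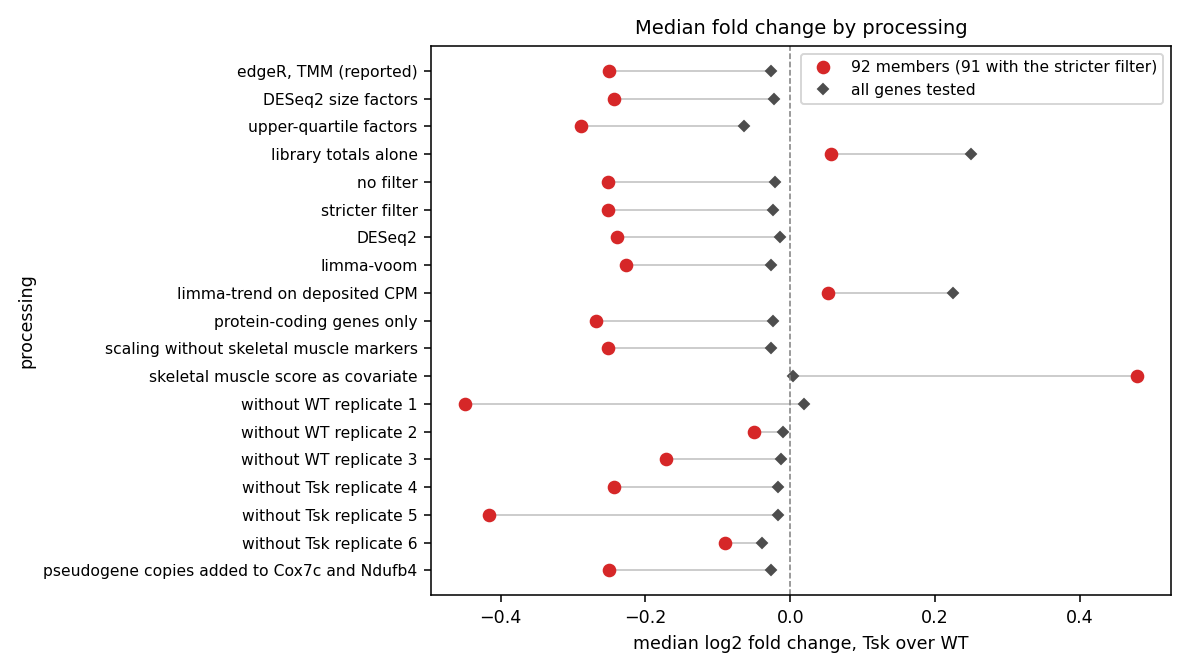
Median log2 fold change (Tsk over WT) of the members (red) and of all genes tested (grey) under each way of processing the counts. The members' median lies below 0 in every setting but 3, library totals alone (0.06), limma-trend on the deposited CPM (0.05) and the skeletal muscle score as a covariate (0.48), and below the median of all genes in every setting but the last of these.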

How the data were processed

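Per the labels' protocols, stranded libraries were made from rRNA-depleted total RNA. The submitters' processing notes list STAR, Partek 7.0, bcl2fastq 2.19.1.403 and the build mm10, while the gene models and how reads were counted are not given in the sources. Gene values deposited by the authors are expected counts, of which 34.8 to 37.3% in each library were not whole; these were rounded. The deposited CPM values of the members matched counts over library totals to within 0.0235%, and the authors' TMM-normalised signal equalled that CPM times 1 factor per library. The table of TPM was not used.

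The fit used edgeR 4.0.16 under R 4.3.3 (quasi-likelihood F-test, robust, TMM factors 0.823 to 1.13, minimum count 10 and minimum total 15) over 19971 genes, all 92 members included, with Benjamini-Hochberg adjustment over all of them and a threshold of 0.05. The SE was taken as the size of the log2 fold change over the root of F. CPM in the text uses TMM-adjusted totals, and scores and ratios add 0.5. Exact permutation tests were used for the ratios of 8 pairs.

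Exon lengths are unions of exons in GENCODE M21, and windows of 250 bases come from RefSeq. Coordinates are mm10. The sources name no molecular identifiers, so reads may not be independent molecules. Members and lists were chosen with earlier results of these data known. Members named with values are both genes of every pair, the Sdh genes, and in each group the 2 highest per kilobase and the largest and smallest fold change, of which 1 gene is not reported here; Cox7c and Ndufb4 were added for their copies, and from each other list at most 3 genes with the smallest p were eligible. Myh7, Myh2, Myh4, Ucp1, Adipoq, Cidea and Elovl3 were chosen after their values were seen. Alternatives were other scaling factors and filters, DESeq2 1.42.0, limma 3.58.1 (voom and trend), protein-coding genes alone, a muscle covariate, each library left out and copies added.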

Additional observations from a re-analysis of the deposited data

How the results depend on the processing

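No paired analysis was possible because the WT and Tsk libraries share no replicate numbers. The number of members past the threshold was 0 in the reported fit and 1 under DESeq2 and limma-trend on the deposited CPM (Cox6a1 in both); leaving out a library gave 0 to 1 (Ndufa5, without WT 1). Members at an unadjusted p under 0.05 numbered 3 as reported (3.26%, against 20.1% of all genes tested), 42 without WT 1 (45.7%, against 24.0%), 16 without Tsk 5 (17.4%, against 16.7%) and 1 without WT 3 (1.09%, against 13.9%). The members' median of -0.25 became 0.056 with library totals alone and 0.053 with limma-trend on the deposited CPM, both of which leave out the TMM factors and raise the median of all genes tested to 0.25 and 0.23. It became 0.48 once the muscle score, which did not overlap between the groups, entered the fit, where 3 members lay below 0. The cause was not tested. Leaving out libraries gave -0.45 to -0.05. Over 719 combinations of 40 named members and alternatives, 716 stayed on the same side of the threshold and 3 passed it (Cox6a1 under 2 of them, Ndufa5 without WT 1); the sign of an uncalled value changed in 109. The difference in the log2 ratio of Cox6b2 to Cox6b1 ranged from -0.071 (without Tsk 6) to 1.16 and that of Atp5g1 to Atp5g3 from -0.076 to 0.045 when libraries were left out; the other pairs kept their sign. Cox6b2 and Cox4i2 are limited by depth, with at most 13 and 23 counts in a library.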
